A study of Mus musculus with 2 samples.

Results

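The genes described here encode the class I antigen presentation machinery: the class I chains B2m, H2-K1, H2-D1 and H2-T23, the peptide transporter subunits Tap1 and Tap2, the loading factor Tapbp, and the immunoproteasome subunits Psmb8, Psmb9 and Psmb10. They were measured in CD8+ T cells of the pmel transgenic mouse, which bear a T cell receptor specific for the melanocyte antigen gp100. Effector cells that had been through 2 rounds of in vitro stimulation (channel 2) were set against effector cells after 1 round (channel 1) by hybridising total RNA of both on the same 2-colour microarray, and both stages carry the transgenic receptor. There were 2 arrays, the second labelled a repeat of the first, and nothing in the labels says whether it came from a new culture, so errors and p-values cover the spread between these arrays alone and that spread may be technical. Members were the probes annotated to exactly 1 gene symbol equal to a listed gene, with a value on both arrays. This gave 8 probes, 1 for each of 8 of the 10 listed genes, among 21427 probes with both values in all. H2-D1 and H2-T23 had no probe that met this rule and are not analysed here.

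Class I molecules sit on the surface of nearly all nucleated cells and show peptides from inside the cell to CD8+ T cells. Proteasomes cut proteins into peptides, the TAP transporter carries these into the endoplasmic reticulum, tapasin holds empty class I molecules at the transporter, and the finished complex of heavy chain, beta-2 microglobulin and peptide moves to the surface. Interferon gamma, which activated T cells themselves secrete, induces most genes of this route, including catalytic proteasome subunits that take the place of their constitutive counterparts in newly built proteasomes.

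Each value is the log2 ratio of the 2 channels of a probe, as deposited by the authors. Neither the numerator nor the log base is stated in the sources used here. Base 2 was assumed, and sides are given as positive and negative. The labels name the cells after 1 stimulation first, so a positive value is likely, on that order alone, RNA more abundant after 1 stimulation. The same stage was in the same channel on both arrays, so a dye bias of a probe, which was not tested, would repeat on both. Spot intensities were not used, so the level of a gene and the signal behind a ratio are unknown, the CD8+ T cell identity could not be checked against marker levels, and precision is limited by the number of arrays. In RNA of a whole culture, fewer cells of a type and less RNA per cell cannot be told apart. The arrays had medians of 0.01 and 0.02 over all probes and SDs of 0.376 and 0.453, and they correlated with Pearson's r = 0.494 across probes, which are not independent replicates.

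The differences between the stages were small for the class I presentation genes, and none was called. Their 8 means ran between -0.21 for H2-K1 and 0.445 for Psmb9, which is at most a 1.36-fold difference. Among the means of all 14150 genes these were nonetheless high for Psmb9, Tap2 and B2m, at percentiles 94.4, 91.9 and 90.2, while H2-K1 lay at percentile 25.1 and Tap1 and Tapbp at 25.7. Of the 8 probes, 0 reached 2-fold in the same direction on the 2 arrays, where 0.854% of all probes did, and 0 passed limma's moderated test at an adjusted p of 0.05, where 0% of all probes did. In that test the members' adjusted p-values, over all 21427 probes, lay between 0.425 and 0.823, and 0 of the 8 had an unadjusted p under 0.05, the lowest being 0.107. The 95% confidence intervals of all 8 means included 0, and their bounds lay between -0.68 and 1.04. The upper bound of Psmb9, 1.04 or 2.06-fold, was the only one past 2-fold.

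Both arrays were positive for 3 probes (B2m, Tap2 and Psmb9), where 33.0% of all probes were positive on both. Both were negative for 2 probes (H2-K1 and Tapbp), where 29.3% of all probes were. The sign turned between arrays for the other 3, Tap1, Psmb8 and Psmb10. The counts therefore differ by little from those of the array as a whole, and the median of the 8 means was 0.135 beside -0.02 over all 14150 genes.

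**Figure D1:**
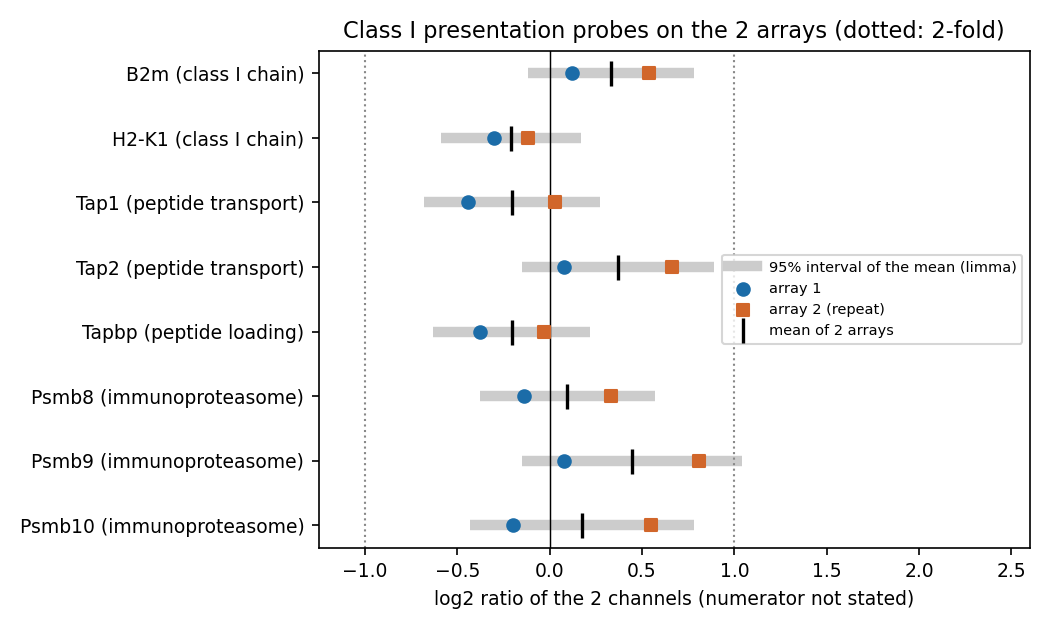
Log2 ratio of each class I presentation probe on array 1 (circles) and array 2 (squares), with the mean (black tick) and limma's 95% confidence interval of the mean (grey bar), and with dotted lines at 2-fold. All 8 bars cross 0, and every square lies to the right of its circle.

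The class I chains parted in sign. B2m, beta-2 microglobulin, the invariant light chain shared by all classical class I molecules, read 0.12 on array 1 and 0.54 on array 2, a mean of 0.33 ± 0.30 (SD, n = 2, limma adjusted p = 0.437). Among all probes that placed it at percentile 63.6 on array 1 and 92.8 on array 2. H2-K1, a classical heavy chain that binds the peptide, read -0.30 and -0.12, a mean of -0.21 ± 0.13 (SD, n = 2, limma adjusted p = 0.532), at percentiles 17.4 and 32.2. B2m was thus on the positive side and the heavy chain on the negative side of both arrays, with B2m minus H2-K1 at 0.42 on array 1 and 0.66 on array 2 on the log2 scale. RefSeq lists H2-K1 also as a synonym of both H2-D1 and H2-T23, and H2-D1 as a synonym of H2-K1. The heavy chain genes are close relatives, and how specific the H2-K1 probe is was not tested.

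The promoters of these genes are shown because the products of both meet in a single complex while their ratios lay on opposite sides. RefSeq windows of build GRCm38.p6 cover 250 bases before to 50 bases after a gene's start, and 9 of the 10 listed genes had one. Capitals mark matches, on either strand, to an interferon-stimulated response element (GAAANNGAA, or GAANNGAAA, the same element shortened at its other end and added after the windows were seen), a gamma-activated site (TTCNNNGAA), a kappa B element (GGGGATTCC), a Y box (CCAAT) and an X2 box (TGACG). The B2m window is chr2:122147437-122147736 on the plus strand and the H2-K1 window chr17:34000298-34000597 on the minus strand.
B2m: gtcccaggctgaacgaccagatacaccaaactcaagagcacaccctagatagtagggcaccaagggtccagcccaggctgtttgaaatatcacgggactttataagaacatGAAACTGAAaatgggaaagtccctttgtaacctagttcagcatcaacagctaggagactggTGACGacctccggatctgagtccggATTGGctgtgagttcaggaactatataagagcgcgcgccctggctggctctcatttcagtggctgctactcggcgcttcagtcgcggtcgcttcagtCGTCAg
H2-K1: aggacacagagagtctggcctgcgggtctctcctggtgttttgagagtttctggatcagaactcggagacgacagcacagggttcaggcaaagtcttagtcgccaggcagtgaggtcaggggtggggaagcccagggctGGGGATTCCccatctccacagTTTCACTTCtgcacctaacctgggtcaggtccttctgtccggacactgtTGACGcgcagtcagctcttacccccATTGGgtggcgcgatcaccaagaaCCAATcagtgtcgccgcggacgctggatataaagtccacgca

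Both windows held a Y box, an X2 box and letters of the interferon-stimulated response element, in its first form in B2m (starting at position -139) and in its other form in H2-K1 (-90). Of all 32851 RefSeq windows of this length, 37.4% held the Y box, 20.8% the X2 box, 8.56% the first and 7.52% the other form of the interferon element. The kappa B letters were in H2-K1 (-111) and in H2-D1 (-171), and in 0.25% of all windows. Positions are counted from the gene start that RefSeq gives for the window used, so they shift with that start. The CCAAT letters downstream of the kappa B element lay at 9 in H2-K1, past the start, and at -53 in H2-D1. The positions -111 and -171 are therefore not read as a difference between these promoters. The letters of the gamma-activated site were in 8.3% of all windows and, among the 9 listed genes with a window, in Psmb8 (-97). A match describes these letters only.

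The means of the transporter subunits also parted in sign, though on array 2 both subunits were positive. Tap2 read 0.08 and 0.66 on arrays 1 and 2, a mean of 0.37 ± 0.41 (SD, n = 2, limma adjusted p = 0.442). Tap1, with which it forms the transporter, read -0.44 and 0.03, a mean of -0.205 ± 0.33 (SD, n = 2, limma adjusted p = 0.62). Tap1 had the lowest value of the 8 genes on array 1, at percentile 9.69 of all probes, and was close to the middle of array 2, at percentile 51.0. Tap2 minus Tap1 was 0.52 on array 1 and 0.63 on array 2, a mean of 0.575 ± 0.08 (SD, n = 2). Tapbp, the gene of tapasin, which bridges the transporter and the class I heavy chain, read -0.38 and -0.03, a mean of -0.205 ± 0.25 (SD, n = 2, limma adjusted p = 0.582).

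The immunoproteasome genes lay between -0.20 and 0.08 on array 1 and were all positive on array 2. Psmb9 read 0.08 and 0.81, a mean of 0.445 ± 0.52 (SD, n = 2, limma adjusted p = 0.425), and on array 2 it lay at percentile 96.3 of all probes. Psmb10 read -0.20 and 0.55, a mean of 0.175 ± 0.53 (SD, n = 2, limma adjusted p = 0.737). Psmb8 read -0.14 and 0.33, a mean of 0.095 ± 0.33 (SD, n = 2, limma adjusted p = 0.823), the mean closest to 0 of the 8 genes. For each of these 3 catalytic subunits the difference between arrays was larger than the mean.

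Psmb9, Tap1, Psmb8 and Tap2 follow each other without another gene between them on chromosome 17 in the RefSeq gene table used here. Psmb9 and Tap1 are transcribed away from each other, and their promoter windows share 275 bases. The shared stretch is shown, with the same capitals, in the Psmb9 window at chr17:34187281-34187580 on the minus strand. The Tap1 window lies on the opposite strand.
Psmb9: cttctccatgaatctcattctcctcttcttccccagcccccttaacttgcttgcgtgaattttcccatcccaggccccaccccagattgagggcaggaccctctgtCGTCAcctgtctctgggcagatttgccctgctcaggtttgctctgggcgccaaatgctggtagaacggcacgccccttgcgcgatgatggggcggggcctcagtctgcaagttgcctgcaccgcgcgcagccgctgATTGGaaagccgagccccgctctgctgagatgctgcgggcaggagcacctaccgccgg

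The capitals in this window are an X2 box and a Y box. The log2 ratios of the 2 genes differed by 0.52 on array 1 and 0.78 on array 2 (Psmb9 minus Tap1), a mean of 0.65 ± 0.18 (SD, n = 2), while the confidence intervals of both genes' means included 0 (-0.15 to 1.04 for Psmb9 and -0.68 to 0.27 for Tap1). By position, the 4 neighbours ran 0.445, -0.205, 0.095 and 0.37 in mean log2 ratio, with no common sign. A shift common to all probes of an array cancels in such differences. The differences Psmb9 minus Tap1, Tap2 minus Tap1 and B2m minus H2-K1 were chosen with the values known and were not tested.

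Each immunoproteasome subunit was set against the constitutive subunit whose place it takes. Psmb5, replaced by Psmb8, read -0.29 and -0.42, Psmb6, replaced by Psmb9, read -0.06 and -0.84, and Psmb7, replaced by Psmb10, read -0.07 and -0.75. All 3 constitutive genes were negative on both arrays, so on array 2 the immunoproteasome genes and their partners lay on opposite sides of 0. Psmb8 minus Psmb5 was 0.15 on array 1 and 0.75 on array 2. Psmb9 minus Psmb6 was 0.14 and 1.65, and Psmb10 minus Psmb7 was -0.13 and 1.30. Averaged over the 3 pairs the difference was 0.05 on array 1 and 1.23 on array 2, a mean of 0.643 ± 0.83 (SD, n = 2), so its size rests on array 2. An exact sign-flip test over 2 arrays cannot go below p = 0.5 (two-sided).

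**Figure D2:**
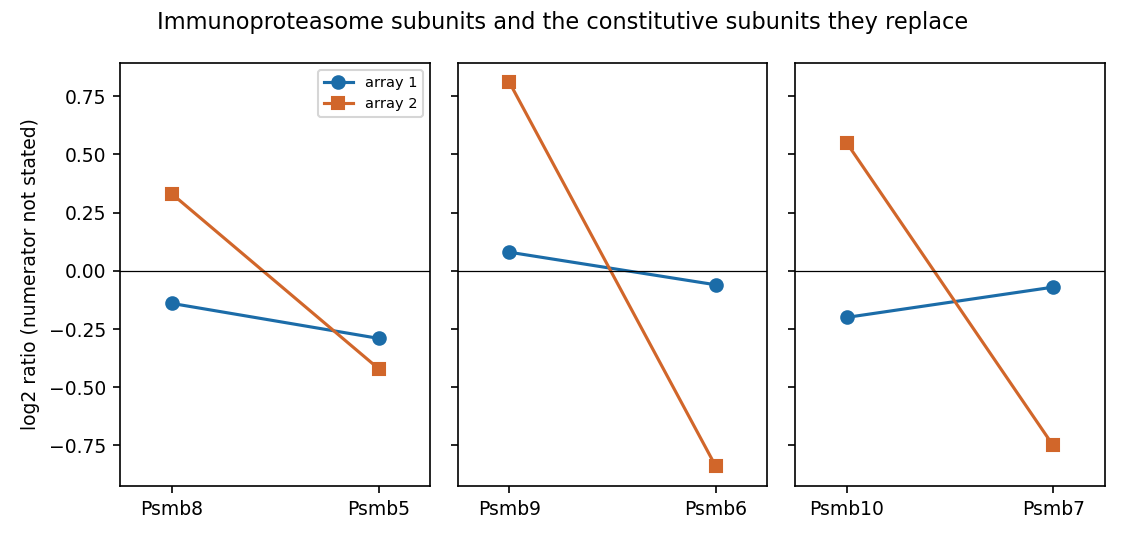
Log2 ratio of each immunoproteasome gene (left in each panel) and its constitutive partner (right) on array 1 (circles) and array 2 (squares). On array 2 the lines drop steeply, by 0.75, 1.65 and 1.30, while on array 1 they are nearly flat.

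All 8 class I presentation probes had a higher log2 ratio on array 2 than on array 1, where 48.8% of all probes did. The difference ran between 0.18 for H2-K1 and 0.75 for Psmb10, with a median of 0.47, beside a median of -0.01 and an SD of 0.422 over all probes. The median of the 8 genes was accordingly -0.17 on array 1 and 0.435 on array 2, so its sign depends on which array is read. Other genes moved with them between arrays. Of 9 T cell markers (Cd3d, Cd3e, Cd8a and others), 8 were higher on array 2, with values of -0.365 to 0.64 on array 1 and 0.06 to 1.68 on array 2. All 5 class II genes of antigen-presenting cells were higher there, with values of 0.06 to 0.57 on array 1 and 1.71 to 2.84 on array 2. B cell markers had medians of 0.11 on array 1 and 0.32 on array 2 (7 of 9 genes higher on array 2), and myeloid and dendritic markers -0.175 and 0.055 (4 of 6). NK cell markers had medians of -0.27 and -0.25 (1 of 3) and red cell markers -0.225 and 0.245 (2 of 2). The part of these cell types in the class I values was not tested.

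**Figure D3:**
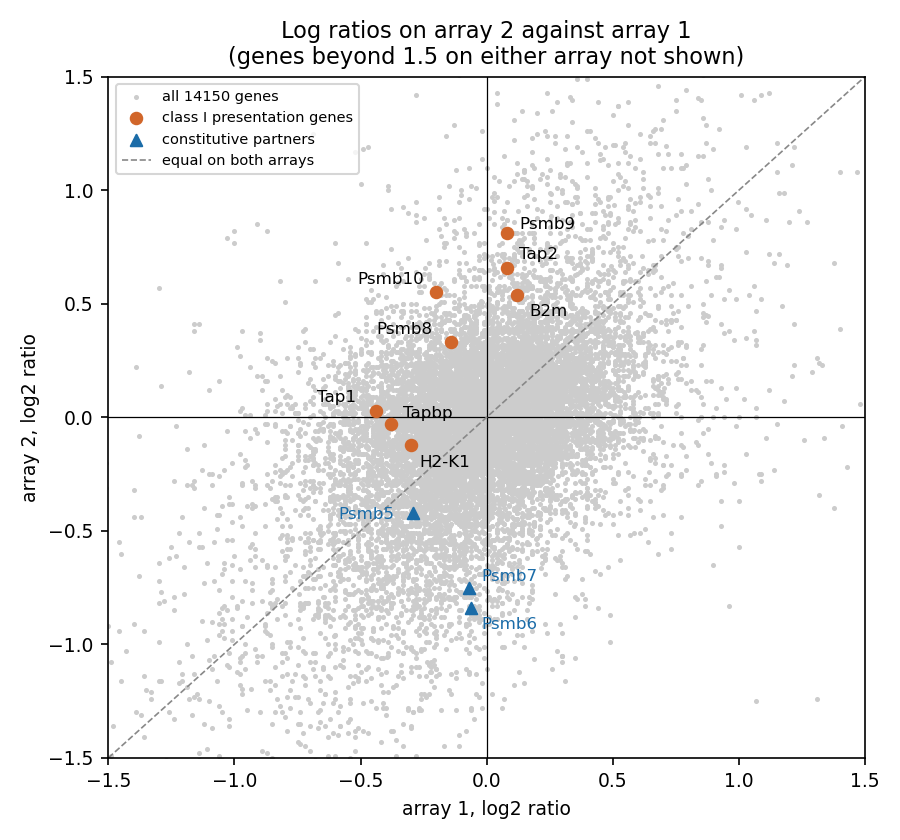
Log2 ratio on array 2 against array 1 for all genes (grey), the class I presentation genes (orange) and the 3 constitutive partners (blue triangles), within 1.5 of 0 on each axis. The 8 class I presentation genes lie above the dashed line of equal values and the 3 partners below it.

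Genes around these members in the same route were counted with 1 mean value per gene and array. Among all 14150 genes, 29.6% had positive values and 33.6% had negative values on both arrays, and in limma's test 0 genes of any of these lists passed. Of 24 further class I and class I-like chains, 14 were measured. Of these, 10 had positive values on both arrays and 1 had negative values, with medians of 0.085 on array 1 and 0.735 on array 2. Cd1d1 and Cd1d2, whose products present lipids to natural killer T cells, were the farthest on the positive side, at 0.69 and 1.27 and at 0.52 and 1.07 on arrays 1 and 2. H2-M2 was the gene negative on both, at -0.25 and -0.40. H2-K1 thus had a negative mean while 10 of the 14 other chains were positive on both arrays. Of 3 H2-Q2 probes, 2 were positive on both arrays and the other read -0.51 and -0.06, so probes of a single heavy chain gene can disagree. The probes of H2-Q5 and those of H2-T3 also differed in sign on array 1. H2-Q2, H2-Q5 and H2-T3 thus count as positive on both arrays by their mean over probes.

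A list of genes for peptide loading and general protein entry and folding in the endoplasmic reticulum was mostly negative. On both arrays 9 of the 11 measured genes had negative values and 2 had positive values, and the list's median was -0.41. The general genes Sec61a1, Sec61b, Sec61g, Ganab, Bcap31 and Hspa5 were among the negative ones, so the count and median do not describe class I loading alone. Erap1, the aminopeptidase that trims peptides to fit class I molecules, read -0.72 and -0.70, a mean of -0.71 ± 0.01 (SD, n = 2, limma adjusted p = 0.184). The chaperone genes Calr (-0.92 and -0.30) and Canx (-0.56 and -0.43), whose products fold new heavy chains, were negative too. The 2 probes of Hspa5, the general chaperone BiP, gave means of -1.08 and -0.445. Pdia3, the oxidoreductase that pairs with tapasin, was on the other side at 0.44 and 0.12, as was the folding sensor Uggt1 at 0.11 and 0.02. Tapbp lay on the side of Calr, Canx and Erap1, and Tap2 did not.

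In the cytosol, 6 of 9 measured genes of peptide supply had negative values on both arrays and 1 had positive values, and the list's median was -0.265. The positive gene was Psme1, a subunit of the interferon-induced proteasome activator, at 0.15 and 0.52, close to B2m on both arrays. Psme3, which forms a different activator found in the nucleus, read -0.55 and -0.71, and the aminopeptidase gene Lap3 -0.22 and -1.10. The immunoproteasome genes and Psme1 were all positive on array 2, and 8 of the 9 supply genes were negative there.

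Regulators of class I genes and the interferon pathway were on both sides: 10 of the 24 measured genes had positive values on both arrays, 6 had negative values, and the list's median was 0.128. Creb1 counts as positive only by its mean over probes that disagreed, with 1 at 0.97 and 0.90 and the other at -0.47 and -0.37. Ifng, the gene of interferon gamma, was the only gene of the list at least 2-fold on both arrays, at -1.41 and -2.12 (limma adjusted p = 0.162). Irf1, an interferon-induced activator of class I genes, was on the opposite side at 0.37 and 0.67, with Irf9, the DNA-binding part of the type I interferon signal, at 0.75 and 0.89 and the receptor kinase gene Jak2 at 0.29 and 1.06. Irf8, an interferon-induced factor, lay with Ifng at -0.60 and -1.60. Nlrc5 and Psme2 were not analysed here. Of the 8 class I presentation genes, B2m, Tap2, Psmb8, Psmb9 and Psmb10 had means on the other side from Ifng, and H2-K1, Tap1 and Tapbp had means on the same side. Psmb8, Psmb10 and Tap1 turned sign between arrays, so their side held for the mean only.

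**Figure D4:**
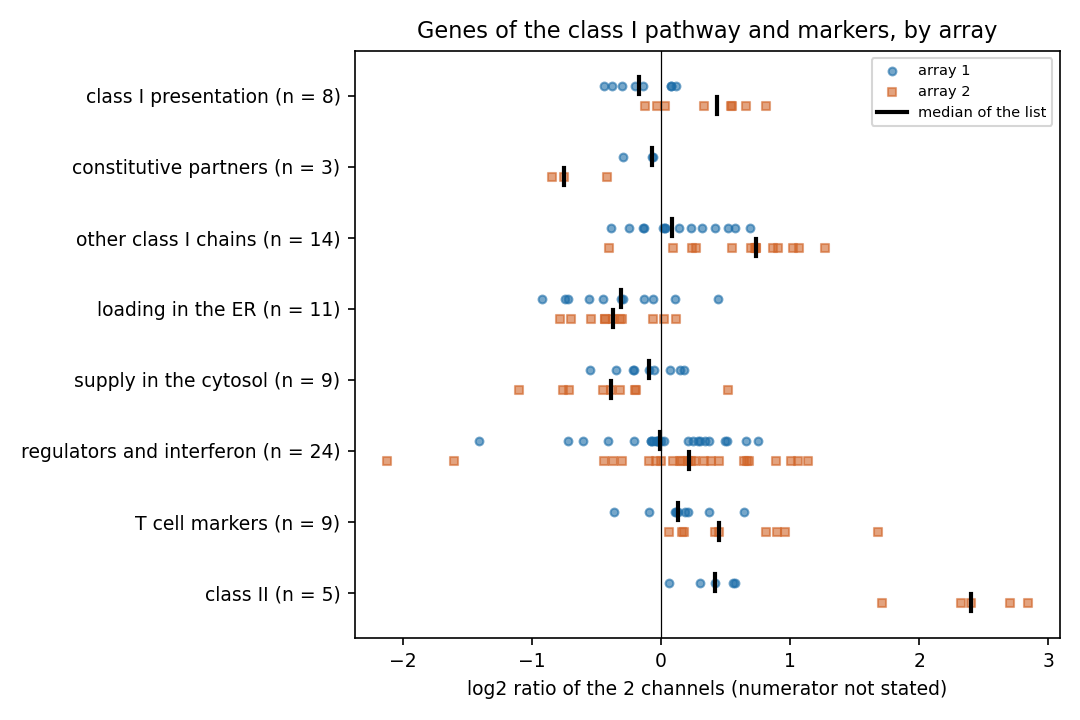
Log2 ratio of each measured gene on array 1 (circles) and array 2 (squares) for the class I presentation genes, the genes around them and 2 marker lists, with black bars at the list medians. The class I presentation genes have medians of -0.17 and 0.435 on arrays 1 and 2 and the other class I chains 0.085 and 0.735. The endoplasmic reticulum list, which also holds general folding and entry genes, has -0.31 and -0.37, and the class II genes 0.42 and 2.40.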

How the data were processed

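The deposited table holds log2 ratios of the 2 channels of each array, 1 per probe. The authors' scanner, background correction and normalization are not given in the sources used here, and base 2 is an assumption. Of 21919 probes, 21427 had a value on both arrays. Gene names came from the annotation of the platform (15998 with 1 symbol, 288 with several, 5633 with none), and all 8 member probes matched RefSeq by Entrez ID. H2-K1 had a further, overlapping promoter window, which was not used.

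limma 3.58.1 in R 4.3.3 fitted the mean of the 2 arrays and tested it against 0, two-sided, with Benjamini-Hochberg adjustment over 21427 probes. There was 1 residual degree of freedom per probe, to which the prior contributed 3.43, and the 95% interval had a median half-width of 0.396. The fit was tested on simulated data. A rule of size (2-fold or more in the same direction on each array) stood beside it.

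Named genes were all members, the 3 constitutive partners, 10 regulators and helpers where measured, and from each list the genes at least 2-fold on both arrays and the 2 farthest on each side with the same sign on both. H2-Q2, H2-Q5, H2-T3, Creb1, the general endoplasmic reticulum genes and the marker genes were named after their values were seen. Members and lists were chosen with earlier results of these data known. Alternatives were median centring, quantile normalization, other priors, 1 value per gene, other thresholds and leaving out each array.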

Additional observations from a re-analysis of the deposited data

How the results depend on the processing

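Median centring and quantile normalization kept the sign of all 16 recomputed member means (8 under each), moved none by over 0.045, and gave limma adjusted p-values of 0.42 to 0.854. Over these, a robust prior and no moderation, members' adjusted p-values ran between 0.398 and 0.896. limma called 0 probes of the 21427 with its moderated test (3186 had an unadjusted p under 0.05), 0 under both scalings, with a robust prior and with 1 value per gene, and 241 with no moderation. Without moderation each probe is judged by its own spread alone, and 248 probes had equal values on both arrays and so no spread. Whether the 241 are such ties was not checked, so they are not read as changed probes. The count of members at least 2-fold on both arrays stayed at 0 at 1.5-fold, with values read as natural logs and on each array alone. Read on 1 array, 3 to 6 members were positive and 2 to 5 negative, against 3 and 2 on both: without replicate 1 there were 6 positive and without replicate 2 there were 5 negative. The members' median was 0.435 without replicate 1 and -0.17 without replicate 2, and the immunoproteasome minus partner difference 1.23 and 0.05. With the sign of both arrays turned, an alternative chosen after seeing the data, 2 members were positive. These are the members negative on both arrays as deposited, so that outcome was fixed in advance and tests nothing. No paired analysis was possible because the arrays form a single group. Without intensities, signal over background is unknown.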
